A study of Mus musculus with 8 samples.

Results

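Glycolysis and the metabolism that responds to oxygen shortage were examined in cultured skin fibroblasts of Nd2-mutant and control mice through 36 genes, chosen by symbol from the glucose transporters to lactate export, together with the enzymes that steer pyruvate and the oxygen sensors. Of these 36 genes, 33 had a probe on the array, 48 probes among 25697 probes with 18138 gene symbols. No probe carried the symbols Hk2, Gpi1 or Ldhb.

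The Nd2-mutant strain C57BL/6J-mtALR/LtJ and the control strain C57BL/6J-mtAKR/J share the nuclear genome of C57BL/6J and differ in the mitochondrial genome, which in the mutant carries a leucine-to-methionine exchange in Nd2, a subunit of respiratory chain complex I. Each strain was represented by 4 untreated mice of 12 months, 2 males and 2 females, with RNA of low-passage cells from dissociated skin on 1 array per mouse. Nd2-mutant mice were numbered 28 and 32 (male) and 34 and 35 (female), and control mice 16 and 17 (male) and 15 and 37 (female). Both are conplastic strains made by repeated backcrossing, and each is a single strain, so that any other difference between the donor mitochondria goes with the strain. The array had 0 probes named for mt-Nd2, so the mutated gene itself could not be used to check the labels.

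Glycolysis splits glucose into pyruvate in the cytosol and yields ATP without oxygen. Pyruvate then either enters the mitochondria through the pyruvate dehydrogenase complex or is reduced to lactate by lactate dehydrogenase. When oxygen falls, the prolyl hydroxylases of the Egln family no longer mark the transcription factor subunit Hif1a for degradation, and the stabilized factor binds short DNA elements and induces glucose transporters, glycolytic enzymes, the pyruvate dehydrogenase kinases and Vegfa. Because this control acts on the Hif1a protein, an array reads only the RNA side of it.

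Of the fibroblast markers on the array, 12 of 13 were detected on all 8 arrays, among them the collagens Col1a1, Col1a2 and Col3a1 and the surface protein Thy1. Each Nd2-mutant array detected more probes (10973 to 11350) than any control array (10663 to 10837). The array of control mouse 15 stood somewhat apart, correlating with the others at 0.934 on average, where the remaining 7 reached 0.963 to 0.974. The summed intensity of smooth muscle and pericyte markers (6 of 8 detected on all arrays, Cnn1 and Rgs5 on none) was 12559 to 15265 in the mutant and 15644 to 17912 in the control mice. Macrophage markers (5 of 15 on all arrays, Itgam and Ptprc on none) summed to 476 to 2528 in the mutant mice, highest in mouse 35, and to 367 to 844 in the control mice. Skeletal muscle markers (3 of 14 on all arrays, Ckm, Myh2, Myh4 and Myod1 on none) summed to 436 to 1100 and 888 to 1815, and endothelial markers (4 of 8 on all arrays, Kdr on none) to 166 to 303 and 279 to 759. The part of these differences in the values that follow was not tested. In RNA of whole cultures, fewer cells of a type and less RNA per cell cannot be told apart.

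Values are background-subtracted intensities in arbitrary units, quantile normalized so that all arrays share 1 distribution. A probe was tested if its detection p-value was under 0.01 on all 4 arrays of at least 1 strain, which 32 member probes of 25 members passed, among 10414 probes of 8003 genes. Differences are on the scale of log2(intensity + 16), which understates the change of dim probes, and intensities of different probes are not compared. A further 8 members had no tested probe. These were Pgk1, Slc16a1, Pfkfb1, Pfkfb3, Pdk2 and Bnip3, whose probes were detected on no array, Pgam2, detected on 5 arrays, and Pdk4, detected on 3.

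No member differed between the strains beyond the multiple-testing threshold. In limma, 0 of 32 member probes had an adjusted p under 0.05, as had 0 of all 10414 (0%), and the smallest adjusted p of a member was 0.639. At an unadjusted p under 0.05, 6 of 32 member probes (18.8%) were higher in the Nd2-mutant mice and 0 were lower. Over all tested probes the share was 7.63% in either direction, 4.5% higher and 3.13% lower. Of the 6, the Aldoc and Egln1 probes were detected on 1 of 4 control arrays and passed the filter only through the mutant arrays, where they were the brighter. Among probes detected on all 8 arrays, 4 of 27 member probes (14.8%) were higher at an unadjusted p under 0.05, where 3.78% of 9403 probes were. These 6 probes stood for the first enzyme of glucose breakdown (Hk1), the aldolases Aldoa and Aldoc, the pyruvate dehydrogenase kinase Pdk1, and the oxygen-sensing pair Hif1a and Egln1. Hk1 and Aldoa had no overlap between the strains, 2 of 32 (6.25%), while 4.37% of all tested probes had none, 2.24% with the mutant higher and 2.13% with it lower. Without control mouse 17 the unadjusted count was 11 of 32 (all tested probes 14%), and 10 of 32 had no overlap (all tested probes 11.7%). Without control mouse 37 these counts were 8 and 5 of 33 (all tested probes 10.8% and 8.69%). The mean was higher in the mutant for 20 member probes and lower for 12. The median difference was 0.08 on the log2 scale, beside 0.00093 over all tested probes, and 62.5% of member probes had a higher mean, beside 50.2%. Over the 27 member probes detected on all arrays the median was 0.04, and 15 had a higher mean. The 5 other tested member probes passed the filter only through the mutant arrays, and each had a higher mean there.

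**Figure D1:**
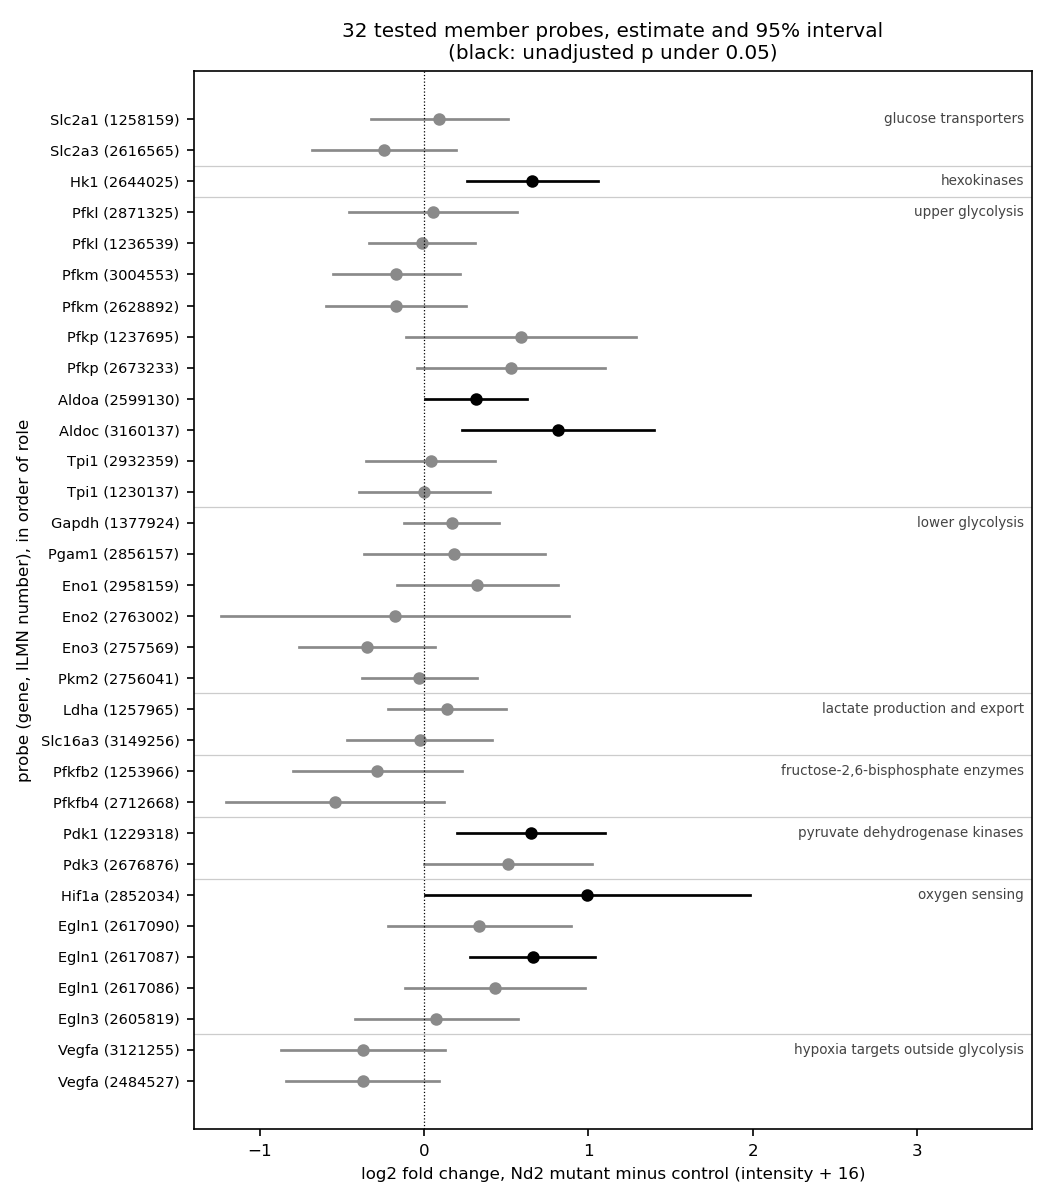
Log2 fold change (Nd2 mutant minus control, intensity + 16) of the 32 tested member probes with 95% intervals from limma, by role. The 6 probes at an unadjusted p under 0.05 (black) all lie to the right of 0, and the estimates run from -0.54 (Pfkfb4) to 0.99 (Hif1a).

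Since Hif1a and several of its textbook targets are among these genes, the 250 bases before the start of each gene were searched for the core of the hypoxia response element, ACGTG or GCGTG on either strand (CACGT and CACGC when read on the opposite strand). The core ACGTG is part of the E-box CACGTG, which other factors also bind. A window was given for 35 of 36 members, all but Slc2a3. At least 1 core was present for 31 of 35 members (88.6%), against 41.5% of 27025 genes and 63.8% of 5180 genes with a tested probe and a window. Among members with a tested probe it was 22 of 24 (91.7%). A gene counted if any of its windows held a core, and some genes had several windows. Counted by window, a core was present in 41 of 55 member windows (74.5%) and in 38.6% of all 32851 windows. ACGTG alone was found for 54.3% of members and 18.5% of genes, GCGTG for 65.7% and 30.9%, and the E-box for 22.9% and 6.86%. Restricted to genes with a tested probe, the shares lay closer, at 54.2% of members and 26.4% of genes for ACGTG, 70.8% and 52.3% for GCGTG, and 16.7% and 10.7% for the E-box. All 6 members above had a core, as had 22 of the 24 tested members, so that a core does not set the 6 apart. Their windows are shown because these genes had an unadjusted p under 0.05, and that of Ldha because it held the most matches of the remaining tested members while its unadjusted p was above that. Capitals mark the cores, and where a gene had several starts the window with the most cores is shown. Hk1, Aldoa and Pdk1 each also had a start whose window held 0 cores. A match describes the letters in the window and not a site in use. The sequences are from RefSeq, build GRCm38.p6, 5′ to 3′ along the gene.
Hif1a, chr12:73907617-73907866, plus strand: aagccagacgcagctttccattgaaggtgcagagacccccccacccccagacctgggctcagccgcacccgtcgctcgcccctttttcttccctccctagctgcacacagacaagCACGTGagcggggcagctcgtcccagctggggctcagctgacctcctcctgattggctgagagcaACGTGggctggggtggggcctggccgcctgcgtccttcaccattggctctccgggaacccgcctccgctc
Egln1, chr8:124949255-124949504, minus strand: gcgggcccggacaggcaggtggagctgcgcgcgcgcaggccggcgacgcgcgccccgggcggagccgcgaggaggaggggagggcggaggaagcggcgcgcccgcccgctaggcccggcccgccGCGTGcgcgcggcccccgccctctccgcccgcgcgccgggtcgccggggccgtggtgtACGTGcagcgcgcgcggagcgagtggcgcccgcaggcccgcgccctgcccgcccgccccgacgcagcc
Hk1, chr10:62340422-62340671, minus strand: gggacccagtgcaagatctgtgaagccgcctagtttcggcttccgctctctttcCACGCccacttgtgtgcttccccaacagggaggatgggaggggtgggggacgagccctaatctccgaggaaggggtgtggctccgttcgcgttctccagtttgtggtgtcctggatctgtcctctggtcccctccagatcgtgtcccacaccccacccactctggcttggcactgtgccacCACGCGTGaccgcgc
Aldoa, chr7:126799255-126799504, minus strand: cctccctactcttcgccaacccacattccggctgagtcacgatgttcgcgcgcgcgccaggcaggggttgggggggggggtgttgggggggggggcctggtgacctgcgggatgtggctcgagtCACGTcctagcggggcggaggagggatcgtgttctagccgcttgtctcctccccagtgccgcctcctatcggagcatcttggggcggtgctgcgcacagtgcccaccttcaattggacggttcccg
Aldoc, chr11:78322823-78323072, plus strand: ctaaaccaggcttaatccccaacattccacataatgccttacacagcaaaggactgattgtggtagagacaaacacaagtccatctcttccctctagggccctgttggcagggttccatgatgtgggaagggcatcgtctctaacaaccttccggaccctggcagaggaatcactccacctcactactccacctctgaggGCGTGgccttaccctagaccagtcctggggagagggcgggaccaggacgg
Pdk1, chr2:71872974-71873223, plus strand: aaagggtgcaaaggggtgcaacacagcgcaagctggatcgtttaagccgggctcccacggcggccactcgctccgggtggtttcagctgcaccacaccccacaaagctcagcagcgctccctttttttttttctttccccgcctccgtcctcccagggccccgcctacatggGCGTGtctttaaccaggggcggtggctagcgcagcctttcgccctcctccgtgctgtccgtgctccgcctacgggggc
Ldha, chr7:46845554-46845803, plus strand: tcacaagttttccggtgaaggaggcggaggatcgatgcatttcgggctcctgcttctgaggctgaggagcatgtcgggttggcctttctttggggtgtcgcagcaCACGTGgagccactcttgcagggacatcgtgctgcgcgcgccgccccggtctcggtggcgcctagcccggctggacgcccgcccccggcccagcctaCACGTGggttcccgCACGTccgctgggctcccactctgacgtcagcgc
The first base of a core lay 135 and 70 bases before the start in Hif1a and 126 and 68 bases before it in Egln1. In Hk1 these distances were 196 and 15 bases. The single core of Aldoa lay at 126, that of Aldoc at 50 and that of Pdk1 at 78 bases. Ldha had cores at 145, 48 and 34 bases.

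Oxygen sensing was represented by Hif1a, the oxygen-regulated subunit of the factor, and by the prolyl hydroxylases Egln1 and Egln3. In all that follows, values are in the order of mice 28, 32, 34 and 35 for the mutant and 15, 16, 17 and 37 for the control. Hif1a (chromosome 12) read 395, 354, 273 and 183 in the mutant and 79.2, 62.3, 359 and 182 in the control mice. Control mice 15 and 16 lay below all others, control mouse 37 beside mutant mouse 35, and control mouse 17 within the upper range of the mutant. The mean was 301 ± 93.8 (SD, n = 4) against 171 ± 136. The difference was 0.99 on the log2 scale (SE 0.45, 1.99-fold, 95% interval 0.01 to 1.98, limma p = 0.0487, adjusted p = 0.639, 2-sided exact permutation p = 0.171). This was the largest estimate and the second largest standard error among the tested member probes. It ranged from 0.67 without control mouse 16 to 1.42 without control mouse 17, and its unadjusted p stayed under 0.05 in 3 of 8 omissions of 1 mouse. It stayed under 0.05 in 6 of the 12 other alternatives, and not with 1 or 50 added, on the linear scale, with no filter, with the methods' test or with array weights, which gave 0.59.

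Egln1, the main oxygen sensor that marks Hif1a and is itself induced by it, had 3 tested probes on chromosome 8, all dim. The probe ILMN_2617087 read 30.4, 22.8, 30.6 and 32.2 in the mutant and 9.15, 9.34, 23 and 10.1 in the control mice. Control mouse 17 reached the level of mutant mouse 32, and the other control mice lay well below every mutant mouse. The probe was detected on all mutant arrays but on 1 of 4 control arrays. The difference was 0.66 (SE 0.17, 1.58-fold, limma p = 0.00311, adjusted p = 0.639, exact permutation p = 0.0571), the smallest unadjusted p among the members. With 1 added in place of 16 the difference was 1.20, and with 50 added 0.33. The other Egln1 probes were higher in the mutant mean by 0.43 (ILMN_2617086, adjusted p = 0.65) and 0.34 (ILMN_2617090, adjusted p = 0.704), with overlap. ILMN_2617086, like ILMN_2617087, was detected on 1 of 4 control arrays. Both passed the filter only through the mutant arrays, where they were the brighter. Egln3, induced by hypoxia and expressed in muscle, had 1 tested probe of 2, with a difference of 0.07 (SE 0.22, adjusted p = 0.927).

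**Figure D2:**
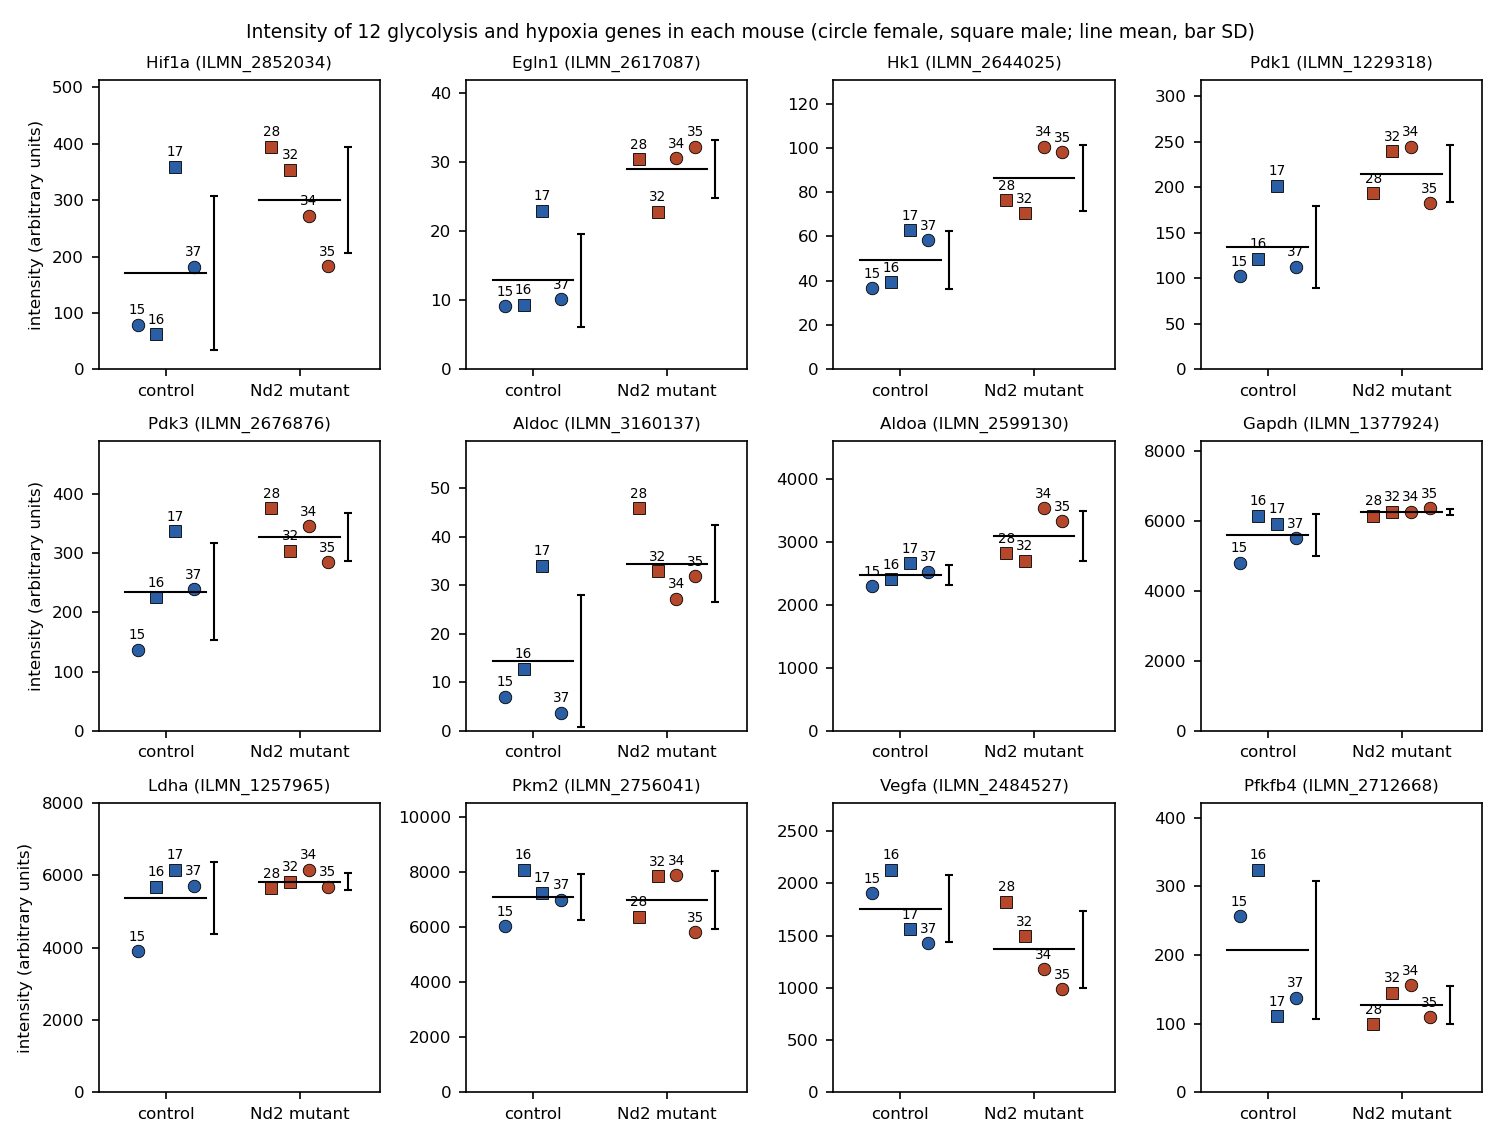
Background-subtracted intensity (arbitrary units, linear axis from 0) of 12 probes in each mouse, with the mouse number, the mean as a line and the SD as a bar (n = 4 per strain). In Hk1 and Aldoa every mutant mouse lies above every control mouse, in Hif1a, Pdk1, Pdk3, Aldoc and Egln1 control mouse 17 lies within or beside the mutant range, and in Vegfa and Pfkfb4 the control mean is the higher one.

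The glucose transporters did not separate the strains beyond the spread between mice. Slc2a1, the ubiquitous glucose transporter, read 1129, 1479, 1555 and 1459.9 in the mutant and 1735, 1274, 1346 and 981 in the control mice, the control values lying on both sides of the mutant. The difference was 0.09 (SE 0.19, 95% interval -0.32 to 0.51, adjusted p = 0.886). Slc2a3, a high-affinity transporter of neurons and blood cells, was dim, at 25.3 to 54.6 in the mutant and 33.0 to 59.1 in the control mice (difference -0.24, adjusted p = 0.722).

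Hk1, the hexokinase that traps glucose as glucose 6-phosphate, was higher in every Nd2-mutant mouse than in any control mouse. It read 76.5, 70.5, 100.5 and 97.9 in the mutant and 36.6, 39.4, 62.8 and 58.2 in the control mice (chromosome 10). Control mice 17 and 37 came nearest to the mutant, and both female mutant mice exceeded both males. The means were 86.3 ± 15.1 and 49.3 ± 13.2 (SD, n = 4). The difference was 0.66 (SE 0.18, 1.58-fold, 95% interval 0.26 to 1.06, limma p = 0.00413, adjusted p = 0.639), with an exact permutation p of 0.0286, the smallest that 4 against 4 mice can give.

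The upper part of glycolysis, from phosphofructokinase to triosephosphate isomerase, had 10 tested probes, 2 of them at an unadjusted p under 0.05, beside 7.63% of all tested probes. Aldoa, the aldolase of muscle and most tissues, read 2826, 2704, 3536 and 3329 in the mutant and 2295, 2413, 2660.3 and 2526 in the control mice (chromosome 7). The strains did not overlap, but mutant mouse 32 was barely above control mouse 17. The difference was 0.32 (SE 0.14, 1.25-fold, limma p = 0.0462, adjusted p = 0.639, exact permutation p = 0.0286), and between 0.25 without mutant mouse 34 and 0.38 without mutant mouse 32, with an unadjusted p under 0.05 in 3 of 8 omissions of 1 mouse and in 9 of the 12 other alternatives (not with 1 added, with probes detected on at least 1 array or with array weights). Aldoc, the aldolase of the nervous system, read 45.8, 32.9, 27.2 and 31.9 against 7.01, 12.8, 34 and 3.73. Control mouse 17 lay second highest of all mice, and the other controls were below every mutant mouse. The Aldoc difference was 0.81 (SE 0.26, 1.76-fold, limma p = 0.0111, adjusted p = 0.639, exact permutation p = 0.114), with the probe detected on 1 of 4 control arrays. With 1 added in place of 16 it was 1.58, and on the linear scale the unadjusted p was over 0.05.

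The phosphofructokinase subunits catalyse the committed step. Both tested Pfkp probes (platelet form, 2 of 3 tested) had higher means in the mutant, by 0.59 (adjusted p = 0.644) and 0.53 (adjusted p = 0.639), with control mouse 15 lowest in each. The second of them (ILMN_2673233) was detected on 3 of 4 control arrays and passed the filter only through the mutant arrays. Both tested Pfkm probes (muscle form, 2 of 3 tested) were lower by the same -0.17, with adjusted p = 0.773 and adjusted p = 0.798. The 2 probes of Pfkl (liver form, both tested) gave 0.05 and -0.01. Tpi1, which interconverts the triose phosphates, had 2 of 3 probes tested. The brighter one (ILMN_1230137) read 4721, 5649, 4620.4 and 4239 in the mutant and 4041, 6423, 4953 and 4041 in the control mice. Control mice 15 and 37 were lowest and control mouse 16 highest, around the whole mutant range. Its difference was 0.00 (SE 0.18, 95% interval -0.40 to 0.40, adjusted p = 0.998), and that of the second probe 0.04 (adjusted p = 0.956).

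In the lower part of glycolysis, which yields the ATP, 6 probes were tested and 0 reached an unadjusted p of 0.05. Gapdh, the dehydrogenase that makes NADH, read 6156, 6276, 6276 and 6373 in the mutant and 4811, 6156, 5936 and 5513 in the control mice. All but control mouse 16, which equalled mutant mouse 28 at this rounding, lay below the mutant mice, and the mutant mice were close together. The difference was 0.17 (SE 0.13, 95% interval -0.12 to 0.46, adjusted p = 0.713). Pkm2, the pyruvate kinase symbol on the array, read 6373, 7836, 7872 and 5799 in the mutant and 6033, 8071, 7243 and 6994 in the control mice. The 2 strains covered nearly the same range, with a difference of -0.03 (SE 0.16, 95% interval -0.38 to 0.32, adjusted p = 0.964). Eno1, the ubiquitous enolase, had a mean higher by 0.32 (SE 0.22, adjusted p = 0.688), with control mouse 15 lowest at 1567 and the others between 2781 and 3438. Pgam1 differed by 0.18 (adjusted p = 0.828). The muscle enolase Eno3 had a lower mean, by -0.35 (SE 0.19, adjusted p = 0.643), while the skeletal muscle markers were also lower in sum, a link that was not tested. The neuronal enolase Eno2 differed by -0.18 with the largest SE of all, 0.48, and was highest in control mouse 15, at 282, the mouse with the highest sum in 5 of the 9 marker lists (fibroblast, endothelial, skeletal muscle, melanocyte, and Schwann and nerve). Their part in this value was not tested.

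The tested genes of lactate production and export did not separate the strains beyond the spread between mice. Ldha, which turns pyruvate into lactate, read 5649, 5825, 6156 and 5683 in the mutant and 3911, 5683, 6156 and 5719 in the control mice. Only control mouse 15 stood below the other 7. The difference was 0.14 (SE 0.16, 95% interval -0.22 to 0.50, adjusted p = 0.806), beside the 3 cores in its promoter window shown above. The lactate exporter Slc16a3 had 1 of 3 probes tested, dim at 14.1 to 30.1 in the mutant and 14.3 to 30.7 in the control mice (difference -0.03, adjusted p = 0.975).

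The bifunctional enzymes make and break fructose 2,6-bisphosphate, the activator of phosphofructokinase. 2 of the 4 members were tested, with 1 probe each, and 0 probes reached an unadjusted p of 0.05 in limma. Pfkfb4 read 99.4, 145, 156 and 109.7 in the mutant and 257, 324, 111 and 138 in the control mice. Control mice 15 and 16 were above all mutant mice, and control mice 17 and 37 lay among them. The difference was -0.54 (SE 0.30, limma p = 0.0988, exact permutation p = 0.257). Pfkfb2 had 1 of 2 probes tested and differed by -0.29 (SE 0.23, adjusted p = 0.722).

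The pyruvate dehydrogenase kinases, which inhibit the complex that feeds pyruvate into the mitochondria, had higher means in the mutant in both tested members. Pdk1 (chromosome 2) read 194, 240.0, 245 and 183 in the mutant and 102, 122, 202 and 113 in the control mice. Control mouse 17 lay between the mutant mice, and the other controls were below every mutant mouse. The means were 215 ± 31.7 and 135 ± 45.4 (SD, n = 4), a difference of 0.65 (SE 0.20, 1.57-fold, limma p = 0.0091, adjusted p = 0.639, exact permutation p = 0.0857). Pdk3 (X chromosome) read 375, 304, 345 and 285 in the mutant and 137, 225, 337 and 239 in the control mice. Control mouse 17 was again within the mutant range and control mouse 15 lowest. The Pdk3 difference was 0.51 (SE 0.23, 95% interval -0.00 to 1.02, adjusted p = 0.639).

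Vegfa, the secreted endothelial growth factor and a textbook Hif1a target, had lower means in the mutant by both tested probes (2 of 3). The brighter probe (ILMN_2484527) read 1824, 1492, 1180.2 and 985 in the mutant and 1904, 2129, 1563 and 1429 in the control mice. The probe ILMN_3121255 read 693, 683, 482 and 451 against 887, 900.1, 756 and 492. On both probes the female mutant mice were lowest and control mice 15 and 16 highest, with overlap between the strains. The differences were -0.37 (SE 0.21, adjusted p = 0.648) and -0.37 (SE 0.22, adjusted p = 0.661). Thus Hif1a and Vegfa lay on opposite sides of 0, neither beyond the adjusted threshold.

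The control mice were not equally close to the mutant in the members. Control mouse 17 was the highest control in 16 of 32 member probes (50%), compared with 23.8% of all tested probes. It was the control nearest to the mutant mean in 17 of 32 (53.1%), against 36.9% of all tested probes. Control mouse 37 was the nearest in 11 of 32 (34.4%), against 33.1%. Control mouse 15 was the lowest control in 16 of 32 (50%), against 39.5%. The median difference of the member probes from the mean of all 8 mice was 0.14 in control mouse 17, 0.05 in 16, -0.12 in 37 and -0.25 in 15. In the mutant mice it was 0.07, 0.11, 0.16 and 0.03, so that control mouse 17 lay within the mutant range and control mouse 16 as well.

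**Figure D3:**
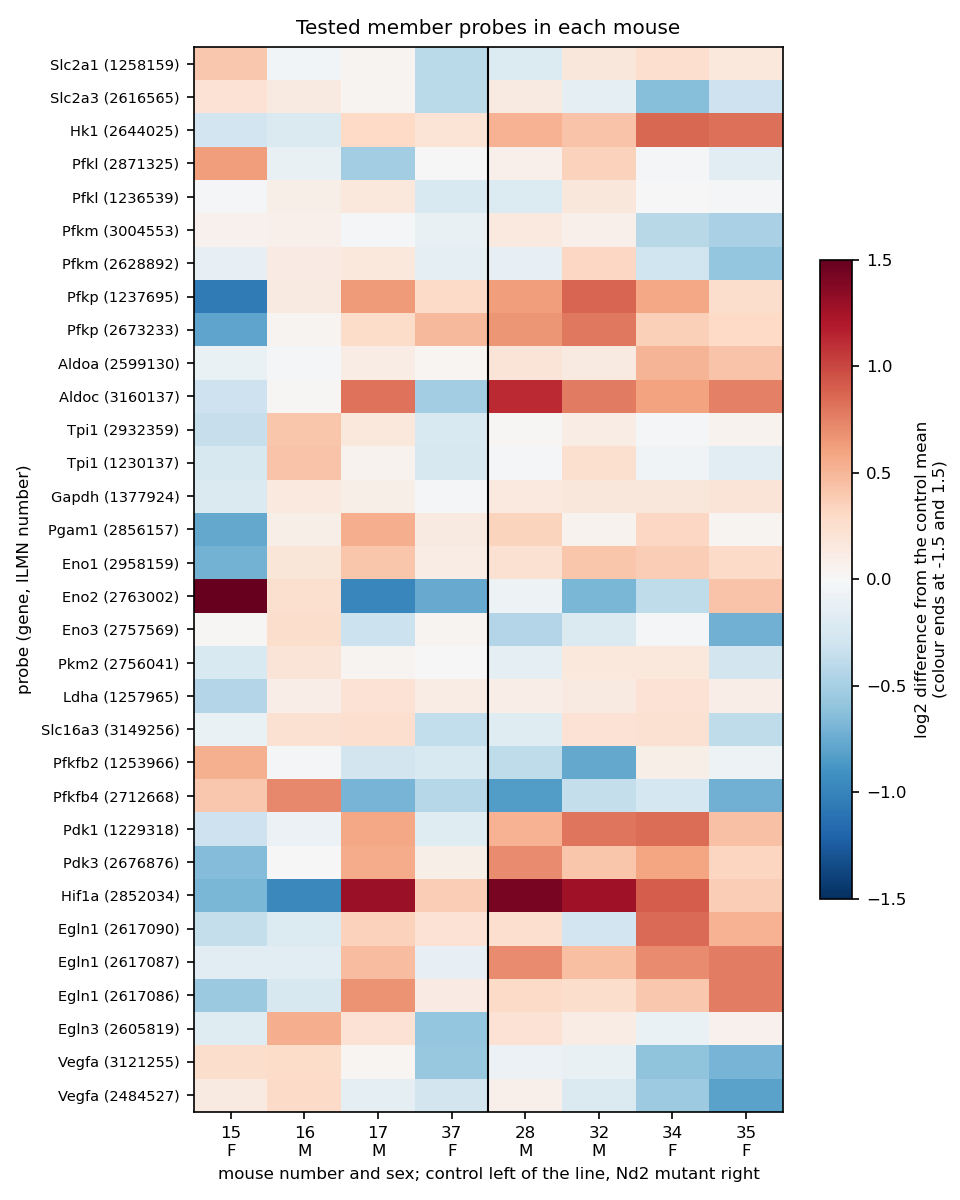
Log2 difference of each mouse from the control mean for the 32 tested member probes (red higher, blue lower, colour ending at 1.5 in either direction). The column of control mouse 17 resembles the mutant columns for Hif1a, Pdk1, Pdk3, Aldoc and Egln1, and that of control mouse 15 is blue for Eno1, Pgam1 and Pfkp.

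The number of members past the unadjusted threshold therefore depended on which control mice were kept. Without control mouse 17, 11 of 32 member probes (34.4%) had an unadjusted p under 0.05 in limma, 9 higher and 2 lower, while the share over all tested probes also went up, to 14%. The lower ones were Pfkfb4 (-0.78, with overlap) and Eno3 (-0.46, without). Among the higher ones, Aldoc and Egln1 (ILMN_2617087 and ILMN_2617086) passed the filter only through the mutant arrays, and each was without overlap. The 10 member probes without overlap (31.2%) stood beside 11.7% of all tested probes, which also exceeded the 4.37% with all mice. Hif1a then differed by 1.42 (adjusted p = 0.232) and Pdk3 by 0.69 (adjusted p = 0.291), with the smallest adjusted p of any member at 0.167. Without control mouse 37, 8 of 33 (24.2%, against 10.8%) passed the unadjusted threshold, with Pgam2 (-0.67) and Vegfa (-0.56, ILMN_3121255) lower, and the median difference was -0.03. Pgam2 entered the test there only because its lowest control was the mouse left out, so that it passed the filter through the strain in which it is high. Among the 32 probes tested with all mice, 7 passed the unadjusted threshold and 4 had no overlap, where 8.69% of all tested probes had none. Of these 7, Aldoc, Egln1 (ILMN_2617087) and Pfkp (ILMN_2673233) passed the filter only through the mutant arrays. Without control mouse 15 or control mouse 16, 4 of 32 (12.5%) passed, against 7.91% and 4.17%. In both omissions these were Hk1, Pdk1, Aldoc and Egln1 (ILMN_2617087). Aldoc and this Egln1 probe passed the filter only through the mutant arrays, where they were the brighter. Hk1, Aldoc, Pdk1 and Egln1 (ILMN_2617087) kept an unadjusted p under 0.05 in 8 of 8 omissions of 1 mouse, Aldoa and Hif1a in 3 of 8 each. For Aldoa the p passed 0.05 without mutant mouse 34 or 35 or control mouse 15, 16 or 37, and for Hif1a without mutant mouse 28, 32 or 34 or control mouse 15 or 16. Their highest p values were 0.136 and 0.154.

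**Figure D4:**
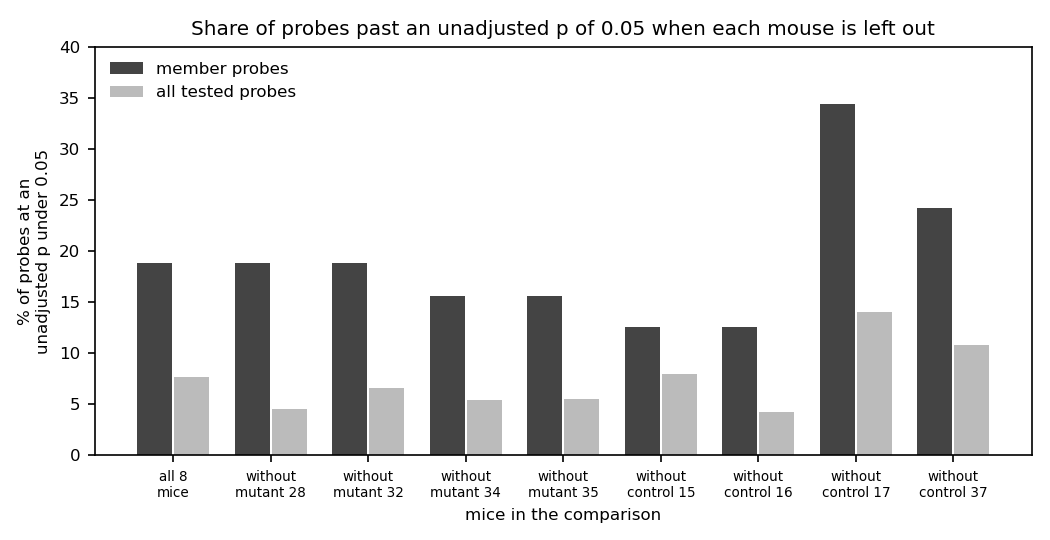
Percentage of probes at an unadjusted limma p under 0.05 with all 8 mice and with each mouse left out, for the member probes (dark bars) and for all tested probes (light bars). Both bars are highest without control mouse 17, at 34.4% and 14%, and the dark bar is above the light bar in each setting. Each dark bar includes Aldoc and Egln1 (ILMN_2617087), which passed the filter only through the mutant arrays.

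Brightness was also examined, because more probes were detected in the mutant arrays. Among member probes with a mean intensity under 100, 3 of 12 were higher at an unadjusted p under 0.05 (Hk1, Aldoc and Egln1), where 5.77% of all dim probes were. Aldoc and Egln1 owe their place in the test to the mutant arrays, and among dim probes detected on all 8 arrays it was 1 of 7, where 3.94% were. Among brighter member probes it was 3 of 20 (Aldoa, Pdk1 and Hif1a), where 3.56% were. The part of the larger number of detected probes in the dim members was not tested.

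Sex was balanced between the strains. In limma, 6 of 32 member probes differed between males and females at an unadjusted p under 0.05, 5 higher in males and 1 lower, and 0 at an adjusted p under 0.05, which 0.0192% of all probes reached. Over all tested probes 8.31% did, 3.86% higher and 4.45% lower. The 5 were Egln3 (0.47), Pfkm (0.40, ILMN_2628892), Aldoc (0.55), Tpi1 (0.35, ILMN_1230137) and Vegfa (0.43, ILMN_3121255), and the lower one was Pfkfb2 (-0.44). The strain difference was itself compared between the sexes, and 1 of 32 member probes had an unadjusted limma p under 0.05 for the interaction, against 1.77% of all tested probes, and 0 an adjusted one (0.0096% of all). This was Pfkl (ILMN_2871325, difference 0.94 larger in males, SE 0.38). The 6 probes named first were higher in the mutant in males alone and in females alone. They were picked for their difference over these same mice, so that this agreement is no separate support. Over the 32 tested member probes the median difference was -0.03 in males alone and 0.29 in females alone. Hk1 differed by 0.44 in males and 0.88 in females, Pdk1 by 0.42 and 0.88, and Hif1a by 1.19 and 0.80. With 2 mice per strain and sex, these are values without a test.

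Neighbouring pathways were read from lists of their own. Storage and release of glucose as glycogen, with gluconeogenesis, had 16 genes with a probe, of which 6 were tested by 8 probes. These were Pygl, Ugp2, Pgm2, G6pc3, Gyg and Pygb, while Fbp1, Fbp2, Pck1, Pck2 and G6pc were not tested. All 8 probes had higher means in the mutant, with a median difference of 0.36, and 2 had an unadjusted limma p under 0.05. Over all tested probes 50.2% had a higher mean and 7.63% passed the unadjusted threshold. Ugp2, which makes UDP-glucose, read 197, 195, 188 and 182 in the mutant and 108, 147, 165 and 166 in the control mice, with no overlap (difference 0.36, SE 0.15, adjusted p = 0.639). The liver-type glycogen phosphorylase Pygl read 93.3, 112, 92.0 and 115 against 46.7, 74.7, 94.6 and 62.9, with only control mouse 17 inside the mutant range (difference 0.50, SE 0.18, adjusted p = 0.639). Its brighter probe (ILMN_2859847) differed by 0.40 with overlap (SE 0.22, limma adjusted p = 0.643). Of 10 genes of the pentose phosphate pathway tested by 11 probes, G6pdx, the enzyme that opens it, passed the unadjusted threshold, 1 of 11 beside the same 7.63%. G6pdx read 248, 234, 351 and 324 in the mutant and 122, 115, 224 and 203 in the control mice, with every mutant mouse above every control mouse. Its difference was 0.78 (SE 0.23, adjusted p = 0.639), beside a median of -0.05 over the list.

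Regulators of the HIF pathway other than the members gave 1 of 8 probes (7 genes) at an unadjusted p under 0.05, beside 7.63% of all tested probes. This was Cited2, which competes with Hif1a for its coactivator and read 10.8, 18.5, 45.8 and 33.1 in the mutant and 9.0, 8.47, 5.44 and 23.4 in the control mice. It was highest in the female mutant mice, with overlap between the strains (difference 0.61, SE 0.28, adjusted p = 0.639). Its probe was detected on 5 arrays and passed the filter only through the mutant arrays, where it was the brighter. Of 27 other genes known to respond to hypoxia, tested by 35 probes, 0 passed the unadjusted threshold in limma, with 23 means higher, 12 lower and a median of 0.07. The genes of pyruvate entry into mitochondria (8 probes, median 0.12), other isoforms of the glycolytic enzymes (10 probes, median 0.02) and linked regulators (8 probes, median 0.05) also had 0 at an unadjusted p under 0.05 in limma. In all 7 lists 0 probes had an adjusted p under 0.05.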

How the data were processed

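RNA of 8 skin fibroblast cultures was hybridised to BeadChips (MouseRef-8 v2.0). Intensities were quantile normalized by the authors with GenomeStudio (named without a version in the submitters' processing notes) and background subtracted. The deposited table gives a detection p-value beside every intensity. The deposited table called non-normalized held the same bytes as the normalized one, so other background corrections and normalizations could not be run. No chip was named, so no chip block was fitted. Arrays carry no read depth, and their number limits the precision.

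Intensities below 0 were set to 0, 16 was added and log2 taken. Strains were compared in limma 3.58.1 (R 4.3.3) with Benjamini-Hochberg adjustment over 10414 probes, and single probes also by a 2-sided exact permutation test. Each array is 1 mouse. Probes of 1 gene were kept apart. The steps were tested on simulated data. Alternatives were 1 or 50 added, the linear scale, 3 other filters, the methods' t-test, a trend, array weights, sex as a term, centring, 1 probe per gene, each sex alone and leaving out each mouse.

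Values of every mouse are given for member probes at an unadjusted p under 0.05 or without overlap, for the brightest tested probe of each role, and for Slc2a1, Gapdh, Pkm2, Ldha, Pdk1, Hif1a and Vegfa. Of other lists, genes at an unadjusted p under 0.05 are named. The members and lists were chosen with earlier results of these data known.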

Additional observations from a re-analysis of the deposited data

Results flagged for a closer look

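The value of Egln1 (ILMN_2617087) in control mouse 17 stood apart from the other control mice, at 23 against 9.15 to 10.1. On the log2 scale its gap to the nearest control was 0.911 of the range of the 4 control mice. Of 64 groups of 4 mice examined (32 member probes in 2 strains) this was the 1 group with a mouse set apart, where chance gives about 1 in 20 groups (3.2 of 64).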

How the results depend on the processing

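In every alternative with a test, which leaves out each sex alone, 0 member probes had an adjusted p under 0.05, in limma and in the methods' t-test, and the smallest adjusted p of a member was 0.167. The number higher at an unadjusted p under 0.05 stayed between 4 and 9. The methods' t-test gave 5 of 32, where 698 of all 10414 probes passed in either direction. With each mouse left out, 4.17% to 14% of all tested probes passed in either direction in limma. All 6 probes with an unadjusted p under 0.05 kept their direction in every alternative that tested them, and 19 of the 32 tested member probes did. Aldoc and Egln1 (ILMN_2617087) were not tested with probes detected on all 8 arrays, nor was this Egln1 probe with 1 probe per gene. The number lower at an unadjusted p under 0.05 ranged from 0 to 2 and the number without overlap from 2 to 10 when each mouse was left out, highest without control mouse 17 (5 without control mouse 37), beside 5.79% to 11.7% of all tested probes without overlap in these omissions, and the median difference ranged from -0.032 to 0.18. The median was -0.032 in males alone and 0.29 in females alone. Without a filter on detection, 3 of 48 member probes in place of 1 of 32 had an unadjusted limma p under 0.05 for the interaction of strain and sex. The 48 include undetected probes, and the share over all probes in that setting is not given here.

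The other 13 turned direction in at least 1 alternative, with these values on the log2 scale unless said. In males alone Slc2a1 gave -0.019, Pfkm 0.091, Tpi1 -0.22 and -0.13, Pgam1 -0.12, Ldha -0.044, Egln1 (ILMN_2617090) -0.091 and Egln3 -0.21. In females alone Pfkl gave -0.41 and 0.11, Pkm2 0.057 and Slc16a3 0.16. With array weights Pfkl (ILMN_1236539) gave 0.037, Pgam1 -0.047, Eno2 0.32 and Slc16a3 0.067, and on the linear scale Tpi1 (ILMN_1230137) gave -56.9 intensity units. Leaving out each mouse gave -0.043 to 0.23 for Slc2a1, -0.12 to 0.26 and -0.090 to 0.048 for the Pfkl probes, -0.075 to 0.18 and -0.078 to 0.14 for the Tpi1 probes, -0.074 to 0.37 for Pgam1, -0.50 to 0.32 for Eno2, -0.10 to 0.056 for Pkm2, -0.0059 to 0.21 for Ldha, -0.15 to 0.091 for Slc16a3 and -0.12 to 0.25 for Egln3. The cause was not tested.

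No paired analysis was possible because no number is shared between mutant and control mice. The alternatives that need raw intensities or chip names were not run. Dim probes near background and 4 mice per strain limit what can be told.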

Other observations

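Among genes outside the members and chosen after their values were seen, Edn1, which encodes the vasoconstrictor endothelin and is known to respond to hypoxia, read 32.9, 66.9, 112 and 84.6 in mutant mice 28, 32, 34 and 35 and 448, 117, 67.0 and 166 in control mice 15, 16, 17 and 37. Its difference was -1.04 on the log2 scale (SE 0.47, adjusted p = 0.639), with control mouse 15 far above the rest and control mouse 17 at the level of mutant mouse 32. Prkag1, a regulatory subunit of the energy sensor AMPK, was lower in every Nd2-mutant mouse (354, 296, 383 and 349) than in any control mouse (417, 408, 383 and 389), the highest mutant value lying just below the lowest control value. That difference was small, at -0.21 (SE 0.13, adjusted p = 0.675).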
